A study of Homo sapiens with 12 samples.

Results

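The mRNAs of 8 genes of the plasminogen system were followed in senescent human fibroblasts: the plasminogen activators PLAT and PLAU, the receptor PLAUR, the inhibitors SERPINE2 and SERPINB2, the plasminogen-binding pair ANXA2 and S100A10, and the clearance receptor LRP1. These 8, of 57773 genes counted in each library, were chosen by name and function from genes whose levels in these same libraries were already known. PLAT was also among the genes that the study displayed from these libraries. The differences below are therefore a description of the 8 genes and not independent evidence about them. The 8 do not take in every gene of the system. All 8 passed the filter on low counts, and none came near it, since the lowest sum over the 3 libraries of a group was 2460 counts (SERPINB2, proliferating cells).

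WI-38 fibroblasts, human diploid cells of lung origin kept at low population doubling levels, supplied 4 groups of 3 libraries. Proliferating cells received DMSO, the vehicle, for 8 days after transfection with a nontargeting siRNA (siCtrl). The other 3 groups received 50 µM etoposide, a topoisomerase inhibitor that damages DNA and drives cells into senescence, for the same time, after transfection with siCtrl, with an siRNA against NTRK2 mRNA, which encodes the neurotrophin receptor TrkB (siNTRK2), or with one against BDNF mRNA, which encodes its ligand (siBDNF). Every siRNA was a commercial pool used at 25 nM, 1 pool per target, so that the effects of a pool on its target and on other mRNAs cannot be told apart. The study states in general that its experiments were repeated independently with all groups kept together, but the labels do not say which libraries shared an experiment or whether replicates were separate cultures. If they were not, the tests measure only the spread between these libraries, which may be technical. No group was proliferating and transfected with siNTRK2 or siBDNF, so each siRNA was compared with siCtrl in senescent cells only.

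Plasminogen activators are serine proteases that cut the zymogen plasminogen into plasmin, which degrades fibrin and matrix proteins. Urokinase (PLAU) acts mainly at the cell surface, bound to its receptor (PLAUR), whereas tissue-type activator (PLAT) acts mainly on fibrin. Serpins trap the activators in covalent complexes, annexin A2 and its light chain S100A10 hold plasminogen and PLAT at the surface, and LRP1 takes up the complexes of proteases and serpins. Activators, their receptor and serpins are known among the proteins that senescent fibroblasts secrete or carry on the surface.

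The mRNAs of PLAU, SERPINE2, SERPINB2 and PLAT were more abundant with siBDNF than with siNTRK2 in every library. Since PLAT had no entry in the promoter table, the sequences around the start sites of the first 3 are shown. They hold the 250 bases before and 50 after each start, 5′ to 3′ on the strand of the gene, from the RefSeq promoter table of GRCh38.p14, whereas the counts and the gene positions given later are on hg19. A match to 1 of 4 motifs on either strand is in capitals: TGANTCA (the AP-1 motif with its central base left free, which is C or G in the usual consensus), TGACGTCA (a cAMP response element), TATAAA, known as the TATA box, and finally GGGCGG, known as the GC box. No match overlapped a match to another motif.
PLAU (chr10:73910360-73910659, plus strand): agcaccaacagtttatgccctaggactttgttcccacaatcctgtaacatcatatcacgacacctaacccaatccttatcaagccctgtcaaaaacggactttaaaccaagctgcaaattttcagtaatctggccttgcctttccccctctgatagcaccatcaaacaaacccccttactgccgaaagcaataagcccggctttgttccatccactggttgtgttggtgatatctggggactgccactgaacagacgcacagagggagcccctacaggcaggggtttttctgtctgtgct
SERPINE2 (chr2:224031429-224031728, minus strand): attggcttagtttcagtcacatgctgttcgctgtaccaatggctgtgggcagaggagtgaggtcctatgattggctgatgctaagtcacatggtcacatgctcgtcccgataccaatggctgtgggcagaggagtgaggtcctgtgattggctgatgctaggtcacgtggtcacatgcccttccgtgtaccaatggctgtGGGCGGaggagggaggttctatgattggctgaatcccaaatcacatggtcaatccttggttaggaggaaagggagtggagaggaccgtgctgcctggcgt
SERPINB2 (chr18:63887455-63887754, plus strand): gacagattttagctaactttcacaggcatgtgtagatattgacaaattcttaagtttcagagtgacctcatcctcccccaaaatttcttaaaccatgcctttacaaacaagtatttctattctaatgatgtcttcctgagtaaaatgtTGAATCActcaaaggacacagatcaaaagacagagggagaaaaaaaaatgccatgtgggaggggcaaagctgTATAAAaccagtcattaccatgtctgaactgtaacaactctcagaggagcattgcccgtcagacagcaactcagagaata

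The PLAU window held none of the 4 motifs. The SERPINE2 window held a GC box beginning at position -50 relative to the start, a motif found in 45.0% of the 35116 promoters of the table. The SERPINB2 window held a TATA box at position -30, found in 11.5% of all promoters, and an AP-1 motif in this looser form at position -102, found in 7.71%; its letters there were not those of the usual consensus. Among the other members in the table, the AP-1 motif was present in PLAUR (position -186) and ANXA2 (position -127). A TATA box was present in ANXA2 (position -31), and a GC box in ANXA2, S100A10 and LRP1. The cAMP response element, in 1.85% of all promoters, was in none of the 7 windows searched. The table had entries for 7 of the 8 members, and none for PLAT. Each of the 7 had a single window, so any other start site of these genes was not searched. No motif of the 4 was in all of the PLAU, SERPINE2 and SERPINB2 windows or in any pair of them. LRP1, also higher with siBDNF than with siCtrl, held a GC box as SERPINE2 did. So did ANXA2 and S100A10, which lay slightly below siCtrl with siBDNF, whereas PLAU and SERPINB2 were higher with siBDNF and held none. These letters alone do not show what binds there.

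The libraries held between 31567912 and 72328151 counts. All 9 fibroblast markers, collagens and DCN among them, were above 1 CPM (counts relative to the library total on a scale of 1000000, normalized by TMM) in every group, and epithelial markers summed to at most 5.98 CPM. The siCtrl senescent libraries held more CDKN1A mRNA than the proliferating ones, which encodes the cell cycle inhibitor p21 (2877 ± 95.1 against 936 ± 27.2 CPM, mean ± SD, n = 3), and less LMNB1 mRNA, which encodes lamin B1 (2.15 ± 0.326 against 39.6 ± 0.822 CPM). With siNTRK2, CDKN1A fell to 2032 ± 69.1 CPM and LMNB1 rose to 3.29 ± 0.282 CPM, both called against siCtrl. With siBDNF they were at 2793 ± 58.6 and 1.94 ± 0.257 CPM, and neither was called. BDNF mRNA fell from 162 ± 6.32 CPM with siCtrl to 47.1 ± 2.44 CPM with siBDNF and was 205 ± 1.20 CPM with siNTRK2. NTRK2 mRNA was near the limit of detection: it summed to 32 counts over the siCtrl senescent libraries and to 0 with siNTRK2, at least 10.2-fold lower against a floor of 3 counts over the group. The proliferation marker MKI67 was at 1.28 ± 0.42 CPM in siCtrl senescent cells, 4.19 ± 0.290 CPM with siNTRK2 and 2.35 ± 0.421 CPM with siBDNF, against 16.4 ± 0.587 CPM in proliferating cells. Against siCtrl in senescent cells MKI67 was called higher with siNTRK2 (log2 1.72, SE 0.166) and also with siBDNF (0.91, SE 0.177). Every pair of libraries within a group differed by more than counting noise alone gives (chi-square from 3.92 to 13.6 per gene), so none was taken for the same library deposited again. That spread does not show whether the libraries were independent cultures.

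The 8 mRNAs spanned a wide range of levels. Per kilobase of canonical transcript (RPKM, that is normalized CPM divided by the transcript length in kilobases), ANXA2 stood highest in siCtrl senescent cells at 1828 ± 87.9 RPKM, followed by SERPINE2 (477 ± 2.25), PLAU (365 ± 5.88), S100A10 (225 ± 7.09), PLAT (176 ± 7.88), PLAUR (74.3 ± 1.36), LRP1 (33.7 ± 5.13) and SERPINB2 (28.0 ± 1.45). The libraries of neighbours in this order did not overlap, other than those of LRP1 (lowest 28.8 RPKM) and SERPINB2 (highest 28.9 RPKM). In proliferating cells the order differed. ANXA2 was again highest (1533 ± 73.3 RPKM), but S100A10 (340 ± 17.7) and PLAU (304 ± 8.19) came next, above SERPINE2 (73.3 ± 0.764), PLAUR (60.3 ± 4.04), PLAT (56.4 ± 2.57), LRP1 (21.5 ± 0.800) and SERPINB2 (7.87 ± 0.310). There PLAUR (56.7 to 64.7 RPKM) and PLAT (54.5 to 59.4 RPKM) overlapped. SERPINE2 thus stood below S100A10 and PLAU in proliferating cells and above both in each senescent group, where it reached 792 ± 10.9 RPKM with siBDNF.

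**Figure D1:**
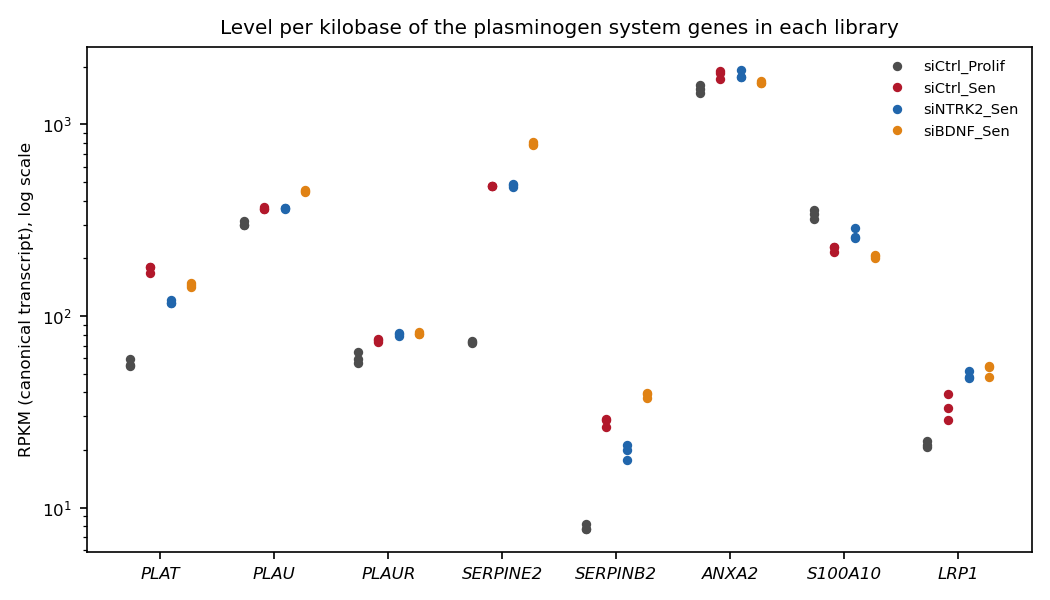
RPKM (normalized CPM per kilobase of canonical transcript, log axis) of each of the 8 genes, with 1 point per library and colours for the 4 groups. ANXA2 lies highest in all 4 groups, and SERPINE2 moves from 73.3 RPKM in proliferating cells to 477 RPKM in siCtrl senescent cells and 792 RPKM with siBDNF.

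**Figure D2:**
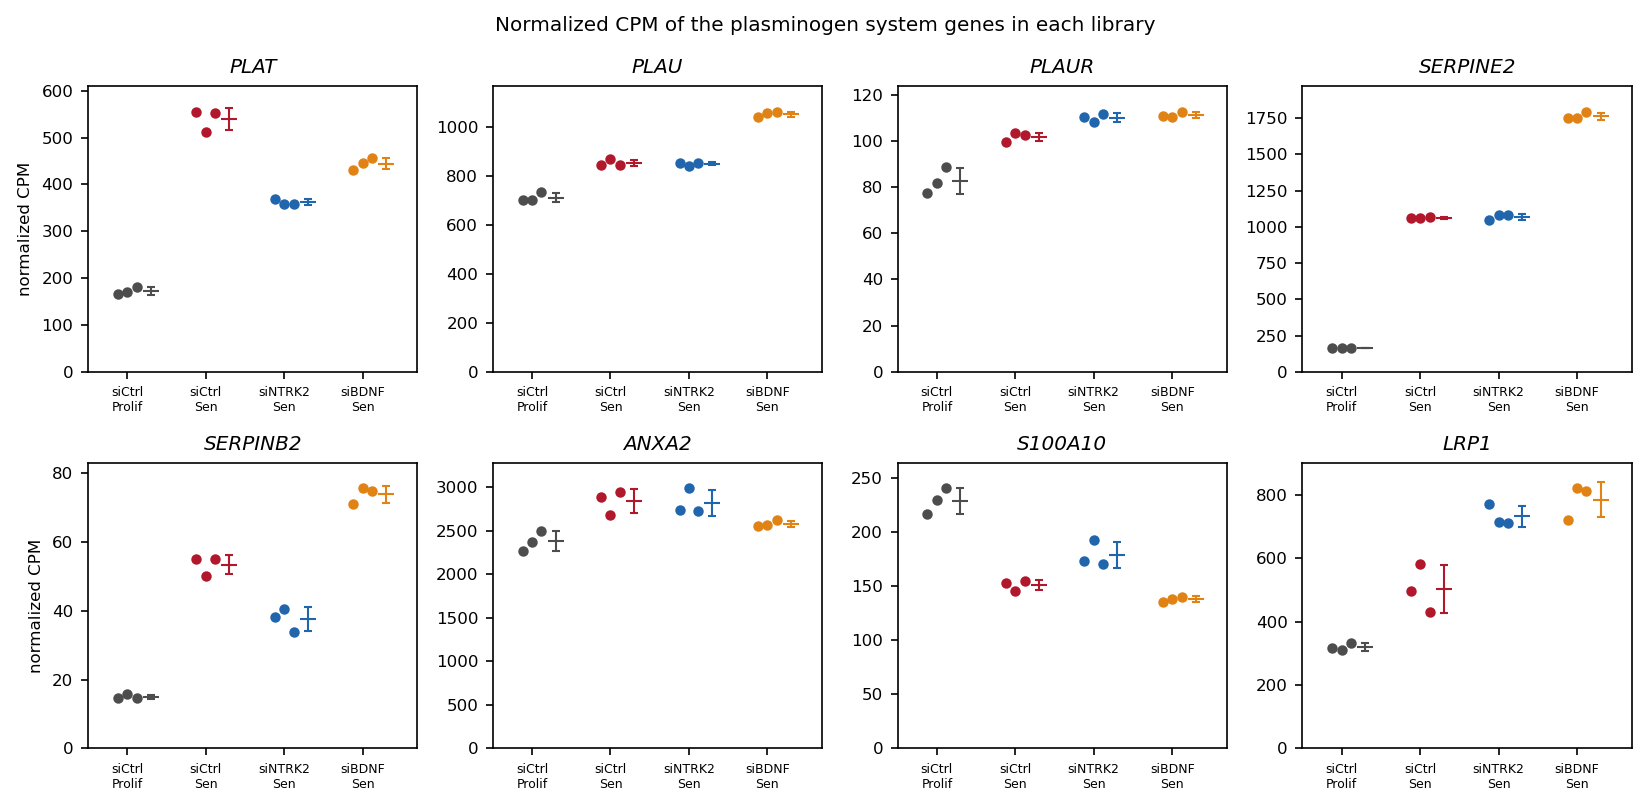
Normalized CPM (axes from 0) of the 8 genes in each library; points are single libraries, and the bar beside them is the mean ± SD of the 3 libraries of a group. The siBDNF libraries lie above all other libraries for PLAU, SERPINE2 and SERPINB2, and the proliferating libraries lie lowest for every gene other than S100A10.

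PLAT (ENSG00000104368, chromosome 8, 42032236 to 42065227, minus strand of hg19) encodes tissue-type plasminogen activator. Its mRNA was at 167, 169.8 and 182 CPM in the 3 proliferating libraries and at 555, 512 and 553 CPM in siCtrl senescent cells, a 3.12-fold higher mean (log2 fold change 1.64, SE 0.046). With siNTRK2 it was at 369, 359 and 359 CPM, and with siBDNF at 432, 446 and 456 CPM. The 4 groups did not overlap, in the order proliferating, siNTRK2, siBDNF and siCtrl senescent. Compared with siCtrl in senescent cells, PLAT mRNA fell by 0.57 on the log2 scale with siNTRK2 (SE 0.045) and by 0.28 with siBDNF (SE 0.045). It was the 1 member that fell past the test with both siRNAs. CDKN1A mRNA also fell with siNTRK2, to 0.706 of its siCtrl level, and its part, and that of LMNB1 and MKI67, in the PLAT difference was not tested. The PLAT mRNA level with siNTRK2 was still 2.10-fold that of proliferating cells.

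PLAU (ENSG00000122861, chromosome 10, 75668935 to 75677254, plus strand) encodes urokinase. Its mRNA was at 702, 702 and 735 CPM in proliferating cells and at 847, 871 and 847 CPM in siCtrl senescent cells, a log2 fold change of 0.26 (SE 0.039). With siNTRK2 the libraries held 855, 844 and 855 CPM, within the siCtrl range or just below it. The difference was -0.01 on the log2 scale, with a 95% interval from -0.09 to 0.07. With siBDNF they held 1043, 1058 and 1063 CPM, above every other library, and 0.30 higher than siCtrl on the log2 scale (SE 0.039). The activators thus moved in opposite directions with siBDNF, PLAT down and PLAU up, in all 3 libraries.

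The count of PLAU is uncertain in 1 respect. C10orf55, a noncoding gene on the opposite strand (75669727 to 75682535), overlaps it, and its counts were 26.4% to 28.0% of those of PLAU in every library. The library kit keeps strand, but whether the counting used it is not given in the sources used here, and reads of the genes then cannot be told apart. C10orf55 was also the gene whose log2 CPM followed that of PLAU most closely (Pearson r 0.994 over the 12 libraries, among 15568 genes), ahead of TNFSF15 (0.985), a cytokine that was at 3.21 ± 0.638 CPM with siCtrl and 9.37 ± 0.787 CPM with siBDNF in senescent cells. These correlations describe 12 libraries in 4 groups and are not tests.

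PLAUR (ENSG00000011422, chromosome 19, 44150247 to 44174699, minus strand) encodes the urokinase receptor. Its mRNA was at 77.5, 81.6 and 88.5 CPM in proliferating cells and at 99.6, 103 and 102 CPM in siCtrl senescent cells (log2 fold change 0.30, SE 0.048). It was at 110.5, 108 and 111 CPM with siNTRK2 and at 111, 110.1 and 112 CPM with siBDNF, so that both sets of libraries lay just above those with siCtrl. The differences from siCtrl, 0.11 (95% interval 0.01 to 0.21) and 0.13 (0.03 to 0.23), were not called (edgeR, adjusted p = 0.0984 and 0.0608). They were called after a per-library correction for the length and GC content of transcripts, called the length and GC offset below (0.18 and 0.23) and with library totals as the scaling (0.13 and 0.19), and for siBDNF also with DESeq2 (0.13), with the filter of at least 10 counts in every library (0.14) and with only the 2 groups in the fit (0.13). PLAUR mRNA thus rose in senescence, while its call with either siRNA depended on these settings. DNAI4 (r 0.990) and SRPX2 (r 0.981), a secreted ligand of the urokinase receptor, had the patterns most like it.

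SERPINE2 (ENSG00000135919, chromosome 2, 224839762 to 224904035, minus strand) encodes protease nexin 1, a secreted inhibitor of thrombin, urokinase and other serine proteases. Its mRNA had the widest range of the 8. It was at 165, 164 and 161 CPM in proliferating cells and at 1057, 1059 and 1067 CPM in siCtrl senescent cells, a 6.50-fold difference (log2 2.70, SE 0.041). With siNTRK2 it was at 1044, 1079 and 1083 CPM, overlapping siCtrl, with a log2 difference of 0.01 (95% interval -0.07 to 0.09). With siBDNF it was at 1748, 1751 and 1791 CPM, 1.66-fold the siCtrl mean (log2 0.73, SE 0.038, edgeR adjusted p = 1.25e-12) and 10.8-fold the proliferating mean. The spread of SERPINE2 within a group was narrow, with an SD of at most 24.3 CPM. Its closest patterns over the 12 libraries were ANGPTL4 (r 0.999), at 2.04, 38.3, 35.1 and 74.2 CPM in proliferating, siCtrl, siNTRK2 and siBDNF cells, and STC1 (r 0.998), at 61.7, 324, 293 and 507 CPM.

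SERPINB2 (ENSG00000197632, chromosome 18, 61538926 to 61571122, plus strand) encodes plasminogen activator inhibitor type 2, which is largely kept inside the cell. Its mRNA was at 14.7, 15.7 and 14.7 CPM in proliferating cells and at 55.1, 50.2 and 54.9 CPM in siCtrl senescent cells, 3.56-fold higher (log2 1.83, SE 0.067). It was lower with siNTRK2, at 38.2, 40.6 and 33.8 CPM, and higher with siBDNF, at 70.9, 75.5 and 74.9 CPM. No group overlapped another. Against siCtrl, SERPINB2 mRNA fell by 0.51 with siNTRK2 (SE 0.062) and rose by 0.47 with siBDNF (SE 0.061) on the log2 scale, the 1 member that was called in opposite directions with the siRNAs. The senescence markers CDKN1A and LMNB1 moved with siNTRK2 as well, and their part in the SERPINB2 difference was not tested.

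SERPINB10, a clade B serpin gene, follows SERPINB2 on the same strand after 4069 bases, and had the pattern most like it (r 0.999), with counts at 44.5% to 51.4% of those of SERPINB2 in the 12 libraries. Whether reads that run past the end of SERPINB2 add to SERPINB10 was not tested. RAB5B, an endosomal GTPase, came next (r 0.996). The summed level of all 5 leucocyte markers moved in the order of SERPINB2. It was 50.0 to 57.1 CPM in proliferating, 108 to 116 CPM in siCtrl senescent, 77.2 to 80.8 CPM with siNTRK2 and 180 to 184 CPM with siBDNF. CD68, a lysosomal protein that fibroblasts also make, accounted for most of it (178 to 181 CPM with siBDNF). Not every other marker followed this order. ITGAM reached 0.293 CPM in siCtrl senescent cells and 0.103 CPM with siBDNF, and PTPRC and CD14 overlapped between these groups. CSF1R was higher with siBDNF (0.794 to 0.931 CPM) than in siCtrl senescent cells (0.519 to 0.758 CPM). PTPRC, the defining leucocyte marker, was at 0 counts in the proliferating libraries and at most 1.07 CPM elsewhere, and the part of these markers in the SERPINB2 and SERPINE2 differences was not tested.

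ANXA2 (ENSG00000182718, chromosome 15, 60639333 to 60695082, minus strand) and S100A10 (ENSG00000197747, chromosome 1, 151955391 to 151966335, minus strand) encode the chains of a tetramer that binds plasminogen at the surface. They moved apart in senescence. ANXA2 mRNA was at 2271, 2377 and 2498 CPM in proliferating cells and at 2894, 2685 and 2942 CPM in siCtrl senescent cells (log2 fold change 0.25, SE 0.046). S100A10 mRNA went from 216, 229 and 240.0 CPM to 153, 145 and 154 CPM, and so fell by 0.60 on the log2 scale (SE 0.050). S100A10 was the 1 member of the 8 that was lower in senescent than in proliferating cells. Its mean went to 0.660 of that in proliferating cells.

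With siNTRK2, S100A10 mRNA was at 173, 193 and 170.5 CPM, above all siCtrl senescent libraries, and rose by 0.24 on the log2 scale (SE 0.050; 0.20 without siNTRK2 replicate 2, its highest library). ANXA2 mRNA, at 2738, 2988 and 2730.4 CPM, overlapped siCtrl (log2 difference -0.01, 95% interval -0.11 to 0.08). With siBDNF both were slightly below siCtrl in every library, S100A10 at 135, 138 and 140.2 CPM and ANXA2 at 2552, 2569 and 2623 CPM. The ANXA2 difference, -0.14 (SE 0.046), was called (edgeR, adjusted p = 0.0345), but lost its call without any 1 of 5 libraries, namely siCtrl senescent replicates 1 and 3 and siBDNF replicates 1, 2 and 3 (-0.11 to -0.15), and was not called with library totals (-0.08), with at least 10 counts in every library (-0.13) or with the length and GC offset (-0.05). The S100A10 difference, -0.13 (95% interval -0.23 to -0.02), was not called (edgeR, adjusted p = 0.0755). It was -0.01 with that offset, and was called with only the 2 groups in the fit (-0.13). ANXA2 has processed pseudogenes that can share its reads, of which ANXA2P2 had 0.911% as many counts as ANXA2.

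The patterns most like that of ANXA2 were DHDDS (r 0.984) and LSM10 (r 0.972). Those most like S100A10 were APPL2 (r 0.992) and LOXL3 (r 0.990), a lysyl oxidase-like enzyme that was at 66.4 CPM in proliferating, 37.8 CPM in siCtrl senescent, 45.6 CPM with siNTRK2 and 32.9 CPM with siBDNF.

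LRP1 (ENSG00000123384, chromosome 12, 57522266 to 57607144, plus strand) encodes a large endocytic receptor that removes complexes of activators and serpins. Its mRNA was at 317, 310.2 and 334 CPM in proliferating cells and at 496, 583 and 430.0 CPM in siCtrl senescent cells (log2 fold change 0.65, SE 0.071). It was higher again with either siRNA, at 770.3, 714 and 712 CPM with siNTRK2 and 721, 819.9 and 812 CPM with siBDNF, without overlap with siCtrl. The increases over siCtrl in senescent cells were 0.54 (SE 0.071) and 0.64 (SE 0.071) on the log2 scale. LRP1 was the 1 member that rose past the test with both siRNAs, and siNTRK2 and siBDNF overlapped (difference -0.10, 95% interval -0.25 to 0.05).

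The siCtrl senescent libraries, which serve as the control of both siRNA comparisons, were uneven for LRP1. The increase was 0.67 with siNTRK2 and 0.77 with siBDNF without siCtrl senescent replicate 2, and 0.45 and 0.54 without replicate 3. LRP1 has the longest transcript of the 8, with 14923 bases. AHNAK (578, 633 and 513 CPM) and MRC2 (324, 377 and 311 CPM), singled out after their values were seen, had the same order of the 3 libraries. With the length and GC offset LRP1 rose by 0.40 with siNTRK2 and 0.47 with siBDNF, still called. On the opposite strand STAT6 and LRP1-AS overlap LRP1, with 18.7% and 1.06% as many counts, and the reads of these genes cannot be told apart without strand. MACF1 (r 0.992) and NAV1 (r 0.988) had the patterns most like LRP1.

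Between proliferating and siCtrl senescent cells all 8 mRNAs were called in edgeR's test over all genes (adjusted p under 0.05), 7 higher and 1 lower, and 3 (SERPINE2, SERPINB2 and PLAT) changed by more than 1 on the log2 scale. This comparison moved much of the transcriptome: 58.1% of the 21518 genes tested were called, 29.8% higher and 28.3% lower, and 16.7% passed the fold of 1 as well. The libraries did not overlap for all 8 members, as for 61.3% of all genes. The median log2 fold change of the 8 was 0.48, and that of all genes 0.02. Among the 8, SERPINE2, SERPINB2 and PLAT rose most, PLAU, PLAUR and ANXA2 by little, and S100A10 fell.

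**Figure D3:**
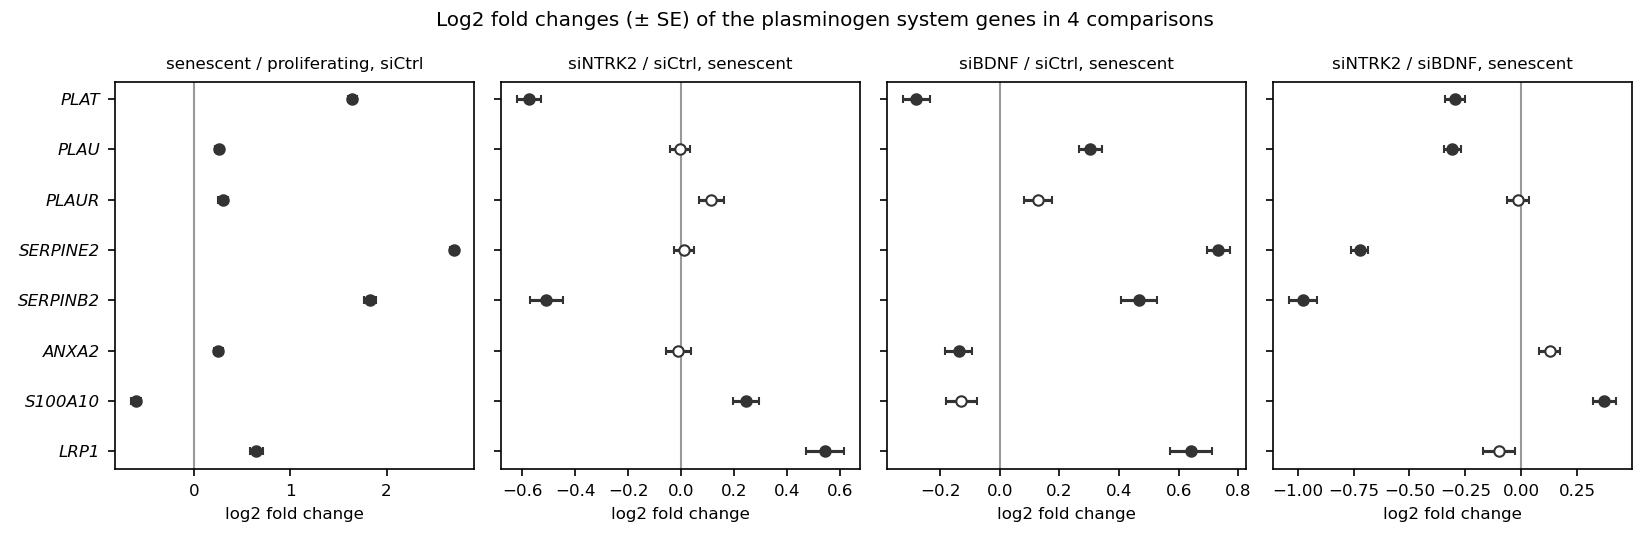
Log2 fold change ± SE of the 8 genes in the 4 comparisons (each panel has its own axis); filled circles passed the test over all genes, open circles did not. The senescence panel runs to 2.70 (SERPINE2), the siRNA panels stay within 1, and LRP1 is the gene to the right of 0 in each of the first 3 panels with filled circles.

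With siNTRK2, 4 of the 8 were called against siCtrl in senescent cells, LRP1 and S100A10 higher and PLAT and SERPINB2 lower. Over all genes 21.1% were called (11.1% higher and 10% lower), and 0.957% also passed the fold of 1, which no member did. The libraries of 5 members did not overlap, against 32.8% of all genes. The median log2 fold change of the 8 was 0.00, as for all genes (0.00), since increases and decreases were balanced. PLAU, SERPINE2 and ANXA2 differed by at most 0.01 when rounded, with adjusted p-values of 0.940, 0.885 and 0.899 in edgeR's quasi-likelihood test.

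With siBDNF, 6 of the 8 were called, SERPINE2, LRP1, SERPINB2 and PLAU higher and PLAT and ANXA2 lower. Over all genes 20.5% were called, 10.3% higher and 10.2% lower, and 0.609% passed the fold of 1. With library totals as the scaling, 3139 of 4527 called genes were higher. The libraries did not overlap for all 8 members, against 37.3% of all genes. The median log2 fold change was 0.22 for the 8 and 0.00 for all genes. The siNTRK2 and siBDNF comparisons share their siCtrl libraries, so their values are given side by side and their likeness is not tested.

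The direct comparison of siNTRK2 with siBDNF needs no shared control. In it 5 of the 8 were called: SERPINB2 (-0.98, SE 0.062), SERPINE2 (-0.72, SE 0.038), PLAU (-0.31, SE 0.039) and PLAT (-0.30, SE 0.045) were lower with siNTRK2, and S100A10 (0.37, SE 0.050) was higher. Over all genes 16.7% were called, 8.84% higher and 7.86% lower, with 1.16% past the fold of 1. With library totals 1349 of 3576 called genes were higher. The libraries of 6 members did not overlap, against 34.2% of all genes. Among the 8, the activators PLAT and PLAU and the inhibitors SERPINE2 and SERPINB2 thus held less mRNA with siNTRK2 than with siBDNF, in each library, whereas PLAUR (-0.01, 95% interval -0.11 to 0.08), LRP1 and ANXA2 (0.13, 0.03 to 0.22) were not called. ANXA2 was called there, at 0.13, with DESeq2, without the filter on low counts and with only the 2 groups in the fit.

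A wider list of 31 genes of the system (other plasminogen-binding proteins, proteases, inhibitors, endocytic receptors and partners), also drawn up with earlier results known, had 25 genes with enough counts for the test. In senescence 19 of the 25 were called, 12 higher and 7 lower, with a median log2 fold change of 0.13, against 58.1% of all genes called (29.8% higher and 28.3% lower) and a median of 0.02. By role, these were 4 of 5 proteases (all higher), 4 of 5 inhibitors (3 higher), 5 of 8 genes of endocytic receptors and their chaperone LRPAP1 (3 higher), 4 of 5 partners (2 higher) and both plasminogen-binding proteins, PLGRKT and the glycolytic enzyme ENO1, which fell. PLG, the gene of plasminogen itself, had 0 to 5 counts per library and was not tested, so that these cultures held next to no mRNA of the substrate.

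Of this list, 6 genes changed by more than 1 in senescence. TFPI2, a Kunitz-type inhibitor of plasmin and other serine proteases in the matrix, rose from 32.3, 34.7 and 29.98 CPM to 184, 183 and 179 CPM (log2 2.49, SE 0.050). SERPINI1, which encodes neuroserpin, an inhibitor of PLAT, rose from 0.843 ± 0.186 to 3.48 ± 0.588 CPM (log2 2.01, SE 0.175). THBS1, which encodes the matrix protein thrombospondin 1, fell by 1.12 on the log2 scale (SE 0.037), from 4082 ± 27.6 to 1881 ± 15.7 CPM. The other 3 were close to the limit of detection. VTN, which encodes vitronectin, rose from 0.227 to 0.612 CPM, ST14, which encodes the protease matriptase, from 2 to 40 counts over the group (ratio 18.9, exact 95% interval 4.91 to 162 for counting error), and LRP2, an endocytic receptor, from 0 to 26 counts, at least 8.21-fold against 3 counts over the group.

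With siNTRK2, 10 of the 25 were called, 9 higher and 1 lower, with a median log2 fold change of 0.18, against 21.1% of all genes (11.1% higher and 10% lower). They included LRPAP1, which chaperones receptors of the LRP1 family, and 3 endocytic receptors, all higher, of which MRC2 (0.68, SE 0.060) and LRP8 (0.65, SE 0.084) are named for their size. TFPI2, at 148, 151 and 146 CPM, was the 1 gene of the list that fell (by 0.29, SE 0.046). With siBDNF, 13 were called, 11 higher and 2 lower, with a median of 0.19, against 20.5% of all genes (10.3% higher and 10.2% lower). They included LRPAP1, 5 endocytic receptors and 3 inhibitors, all higher, as well as THBS1 and ENO1, which fell. The count was 8 without siCtrl senescent replicate 1 and without siBDNF replicate 2.

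TFPI2 reached 362, 351 and 362 CPM with siBDNF, 0.98 above siCtrl on the log2 scale (SE 0.046), and SERPINI1 rose by 0.46 (SE 0.145). In the direct comparison 7 of the 25 were called, 5 higher and 2 lower with siNTRK2, against 16.7% of all genes (8.84% higher and 7.86% lower). The 2 lower genes were TFPI2 (-1.27, SE 0.047) and SERPINI1 (-0.47, SE 0.146), and THBS1 was among the 5 higher genes (0.20, SE 0.037). The number called was 4 without siNTRK2 replicate 1 or 3, 3 without siBDNF replicate 1, 2 without siBDNF replicate 3 and 4 with library totals. SERPINE2, SERPINB2, TFPI2 and SERPINI1 all stood highest with siBDNF and lowest in proliferating cells. The inhibitors SERPINE2 and SERPINI1 overlapped between siNTRK2 and siCtrl, whereas SERPINB2 and TFPI2 lay below siCtrl with siNTRK2 in every library.

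**Figure D4:**
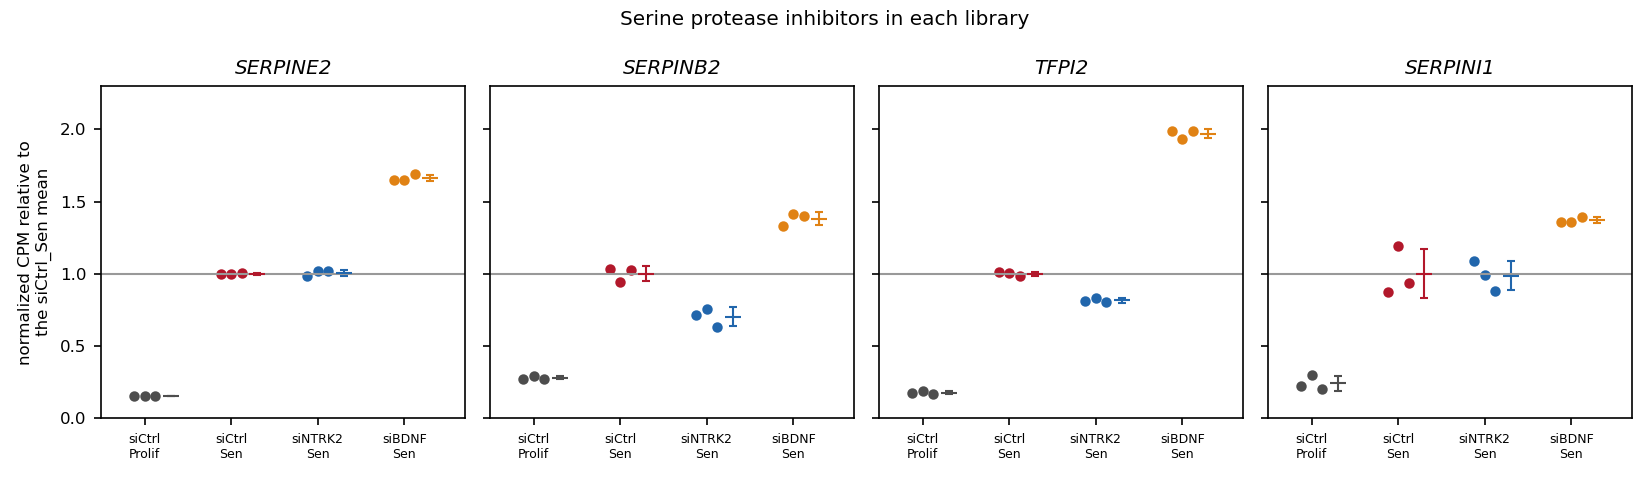
Normalized CPM of 4 serine protease inhibitors in each library, divided by the mean of the siCtrl senescent libraries (line at 1, axis from 0); the bars are the mean ± SD of 3 libraries. The siBDNF libraries lie above the line for all 4, with means of 1.66 for SERPINE2 and 1.38 for SERPINB2, and the siNTRK2 libraries lie below it for SERPINB2 (mean 0.702) and TFPI2.

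PLAT had the patterns of H1-2 (r 0.998), a linker histone that was at 12.7, 70.9, 39.7 and 57.8 CPM in proliferating, siCtrl, siNTRK2 and siBDNF cells, and of ZDHHC9 (r 0.996), a palmitoyltransferase, as its nearest neighbours over the 12 libraries. Counts come from bulk RNA, in which fewer cells of a state and less RNA per cell cannot be told apart, and mRNA levels say nothing about the secreted or bound proteins.

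**Figure D5:**
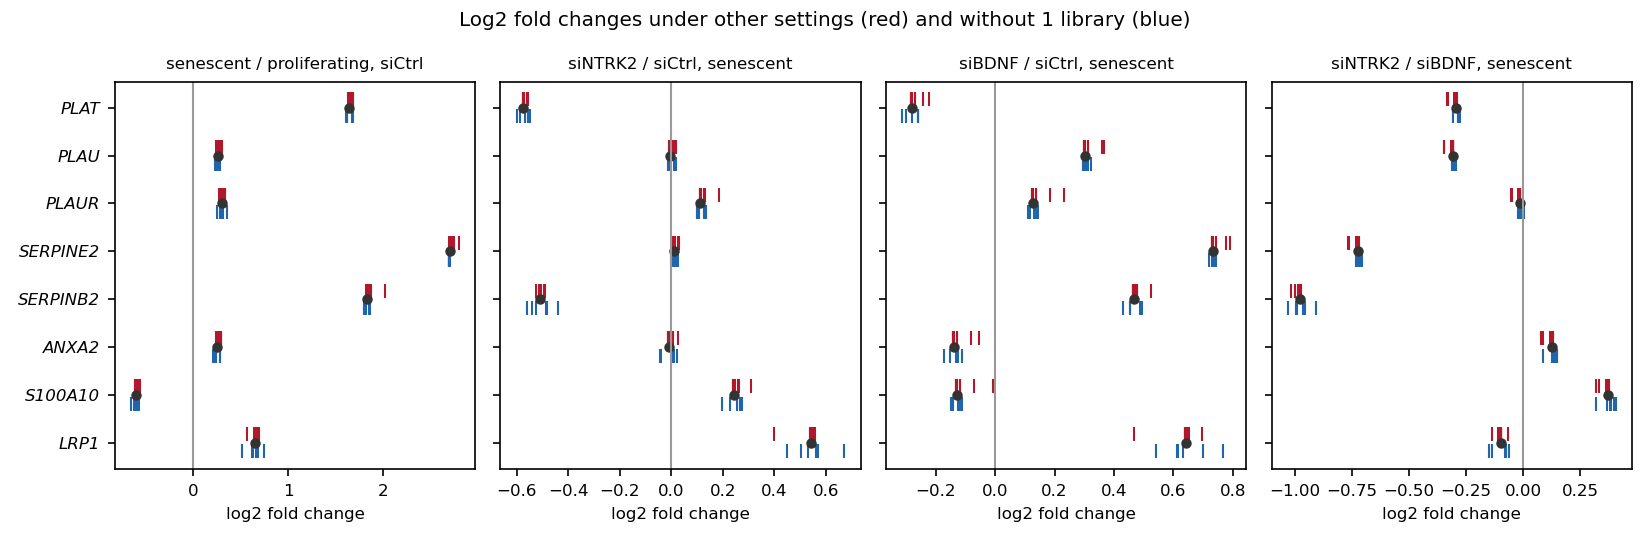
Log2 fold change of the 8 genes in the 4 comparisons as reported (black circles), under other scalings, filters, tests and offsets (red ticks) and with 1 library left out (blue ticks); each panel has its own axis. SERPINE2 keeps between 0.72 and 0.79 with siBDNF, whereas PLAU, SERPINE2 and ANXA2 with siNTRK2 lie on both sides of 0.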

How the data were processed

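Bulk RNA-seq was performed on 12 libraries of polyadenylated RNA. The deposited values are raw counts of reads per Ensembl gene: the authors demultiplexed with bcl2fastq (2.20.0.422), trimmed adapters with cutadapt, aligned to hg19 with STAR (2.4.0j) and counted with featureCounts (1.6.4), per the labels and the methods. Whether counting used strand is not given in the sources used here. Symbols were paired with 55538 of 57773 identifiers.

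Counts were compared with edgeR 4.0.16 in R 4.3.3 (TMM scaling, filterByExpr leaving 21518 genes, a quasi-likelihood fit with 1 term per group over all 12 libraries, Benjamini-Hochberg adjustment). A gene was called at an adjusted p under 0.05. Intervals are 95%. Levels are normalized CPM, and RPKM by the canonical transcript of GENCODE v44 lifted to GRCh37. The code was tested on simulated data. The offset covered the 93.3% of tested genes with a length. A floor of 3 counts, 0.0427 to 0.0916 CPM per library, covers counting error only.

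The 8 members and the wider list were chosen with earlier results of these data known. Named were the members, genes of the wider list called with a log2 fold change over 1, PLG, the 2 genes most correlated with each member (log2 CPM, prior count 2, mean CPM of at least 1) and the targets and senescence markers. LRP8, LRPAP1, SRPX2, ENO1, PLGRKT, AHNAK and MRC2 were added after their values were seen. Alternatives were DESeq2 1.42.0, its size factors in edgeR, library totals, 2 other filters, the replicate block, the length and GC offset (a spline with 4 degrees of freedom), the 2 groups alone, an added fold cutoff and each library left out. Of the marker lists, the endothelial one (4 of 5 genes found) summed to 24.6 to 78.0 CPM.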

Additional observations from a re-analysis of the deposited data

Results flagged for a closer look

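The response to the siRNAs differed between siNTRK2 and siBDNF for 5 of the 8 members, by the direct test of that difference over all genes (edgeR, adjusted p under 0.05, 3 libraries against 3, none overlapping). The log2 difference, siNTRK2 relative to siBDNF, was -0.98 for SERPINB2, -0.72 for SERPINE2, -0.31 for PLAU, -0.30 for PLAT and 0.37 for S100A10. The members had been chosen with these libraries known, and 16.7% of all genes passed the same test. Groups of 3 libraries are too small for a search for single outlying libraries.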

How the results depend on the processing

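Of 32 results of the members (8 genes in 4 comparisons), 23 kept their direction and their side of the threshold under all 14 alternatives each. Of the 448 values, 415 did so, 8 lost a call (all ANXA2 with siBDNF), 11 gained one (PLAUR, ANXA2 or S100A10) and 14 changed sign, all of them values that were not called. Those were, for siNTRK2 against siCtrl, PLAU (0.0122 with library totals, 0.0080 without the filter, 0.0177 with the length and GC offset and -0.0131 to 0.0190 with each library left out), ANXA2 (0.0074, 0.0028 and 0.0252 with the same 3 settings and -0.0457 to 0.0225 with each library left out) and SERPINE2 (-0.0012 to 0.0260 with each library left out), and PLAUR in the direct comparison (-0.0245 to 0.0040 with each library left out). With the added fold cutoff of 1, genes called numbered 3604, 206, 131 and 250 in senescence, with siNTRK2, with siBDNF and in the direct comparison, members 3, 0, 0 and 0, and wider genes 6, 0, 0 and 1. Wider genes called in the direct comparison were 4 with library totals. Leaving out each library gave 11565 to 12381, 2943 to 4804, 2914 to 4651 and 2286 to 3249 genes, 8, 4, 5 to 6 and 5 members, and 17 to 19, 8 to 10, 8 to 13 and 2 to 6 wider genes. Replicate numbers did not pair the libraries: deviations from the group means of libraries with the same number correlated by 0.0168 on average over genes (-0.189 to 0.172), and 5 of 12 libraries correlated best with their own number. The replicate block called 8, 4, 6 and 5 members and changed no call of a member. The causes were not tested. Depth limits NTRK2, PLG, ST14, LRP2 and VTN.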
